A study of Mus musculus with 12 samples.

Results

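The transcripts described here moved in the same direction in both altered lines of mouse female germline stem cells (FGSCs), the Stella-knockout line and the Stella-overexpressing line. Stella (gene symbol Dppa3) encodes a maternal effect protein known for guarding DNA methylation in the oocyte and early embryo. Each line was compared with its own control, and the effects in the 2 lines were averaged with equal weight in 1 fit over all 12 libraries. A transcript became a member when the mean effect passed an adjusted p of 0.05, both lines had the same sign, and each line passed an unadjusted p of 0.05 by itself. Of 9903 transcripts tested, 209 were members, of which 102 were higher and 107 were lower in both altered lines. The members are 2.11% of the transcripts tested, with 1.03% higher and 1.08% lower.

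The 12 libraries, in 4 groups of 3, were sequenced from C57BL/6 FGSCs at passages >20, grown on mitotically inactivated STO feeder cells with LIF, EGF, bFGF and GDNF. KO cells were 1 single-cell clone with Stella knocked out by CRISPR/Cas9, the guides being delivered by lentivirus, and KO-con was labelled only as the knockout control. Over cells carried Stella on a lentivirus and were selected with puromycin, and Over-con cells carried the empty lentiviral vector. Nothing says that the 3 libraries of a group came from separate cultures, so the p-values measure the spread between these libraries, which may be technical. Because each line is 1 derivation, an effect of the altered gene and an effect of making and expanding the line cannot be told apart.

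Library totals ran from 5611846 to 12866545 counts, with a median of 10221419. Dppa3 had 0 counts in all 9 KO-con, KO and Over-con libraries, so its loss in KO could not be seen at this depth, where 3 counts correspond to between 0.233 and 0.535 CPM (read counts scaled to a common library size). In the 3 Over libraries Dppa3 had 347, 371 and 285 counts. Genes listed as several transcripts can have almost no counts whatever their expression: Canx, Cox4i1, Ctcf, Hspa5 and Lamp1, which nearly all cells use, had 0 counts in every library, and Gapdh at most 5. A low count was therefore read only for genes listed as 1 transcript. Of 15 such germ cell markers 9 had at most 3 counts in every library, Stra8 and Sohlh1 among them, beside 45.1% of all genes listed as 1 transcript, and the labelled germ cell identity could not be settled from this list. Of 15 such mast cell markers 6 were at that level, Fcer1a included, whereas others such as Cpa3 were abundant.

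As background, proliferating cells switch on replication genes before S phase and mitotic genes before division, each as a block. Replication genes supply the MCM helicase, the DNA polymerases and the clamp loader. Mitotic genes supply kinesins, spindle checkpoint proteins and chromosome condensation factors. Immediate early genes and NF-kappa B targets are, by contrast, signal-dependent genes whose transcripts rise within a short time of a growth factor or inflammatory stimulus.

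At an adjusted p of 0.05 (edgeR), 1322 transcripts differed between KO and KO-con and 127 between Over and Over-con. The 2 comparisons share no library. Over all transcripts tested the effects in the 2 lines were close to unrelated, with a Pearson r of -0.030 and a Spearman rho of -0.063 across transcripts, which are not independent replicates. Both lines passed an unadjusted p of 0.05 in the same direction for 223 transcripts, 2.25% of those tested, and in opposite directions for 267, or 2.7%. Without Over-con replicate 3 the opposite moves numbered 426 and the shared ones 240.

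**Figure D1:**
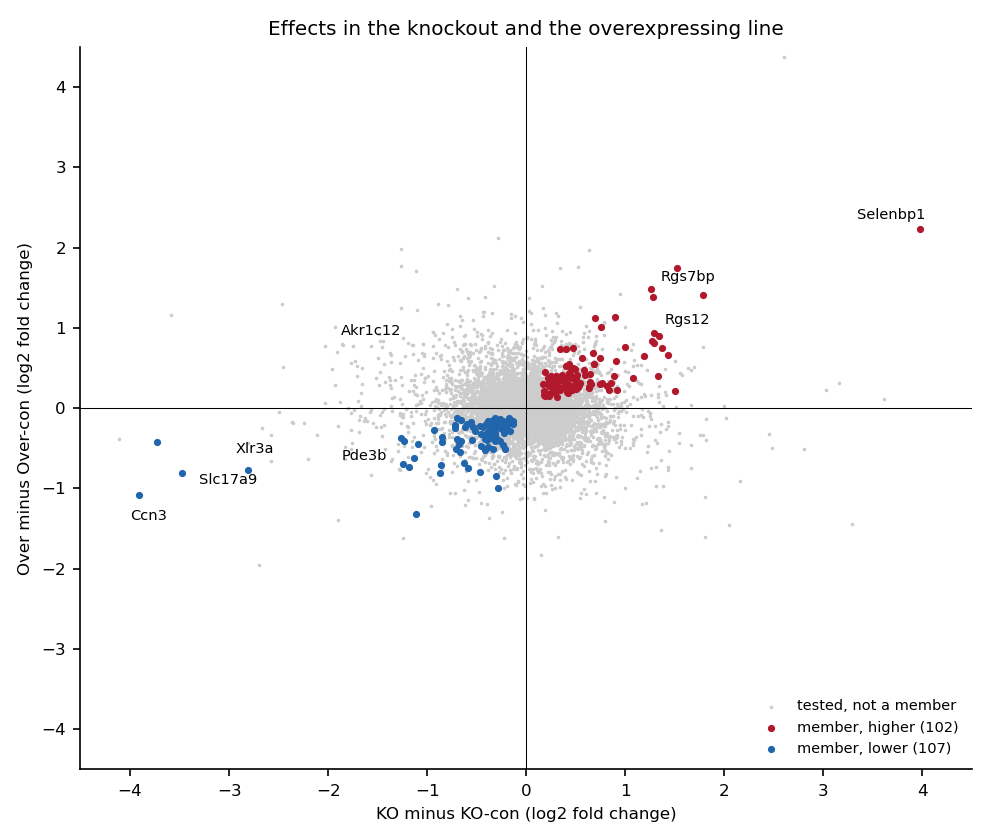
Log2 fold change of KO against KO-con (x axis) and of Over against Over-con (y axis) for each transcript tested; members are coloured by direction, Dppa3 is left out and 3 transcripts, Cd48 among them, lie beyond the axes. The 102 higher and 107 lower members lie in the upper right and lower left quadrants by their definition, and most lie within 1 log2 unit of the origin.

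The mean effect passed the adjusted p for 624 transcripts, 6.3% of those tested, with 298 higher (3.01%) and 326 lower (3.29%). Scaled by library totals alone, 425 were higher and 241 lower, and the members were 151 higher and 64 lower. For 346 of the 624, only KO passed an unadjusted p of 0.05 by itself, and for 53 only Over did. A mean can therefore pass through 1 line alone, which is why each line had to pass by itself. Most members changed by a small amount: the median mean effect was 0.43 on the log2 scale for the higher members and -0.34 for the lower ones, or 1.35-fold and 0.789-fold. The mean effect was under 0.5 in size for 64 of the 102 higher members and 80 of the 107 lower members. The mean effect exceeded 1 in size for 18 members, 12 higher and 6 lower.

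In 166 members the 3 altered libraries lay wholly beyond the 3 control libraries in each line, compared with 305 (3.08%) of all transcripts tested. In 51 members, 30 higher and 21 lower, all 6 altered libraries lay beyond all 6 control libraries, compared with 88 (0.889%) of all transcripts tested. Both separations use the values that chose the members and are a description. Many of the other members started from different levels in the 2 lines, as described below for Ccn3 and Rgs12.

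Ccn3, a secreted matricellular protein of the CCN family (chr15:54577257-54585594 in mm9, + strand), had 243, 230 and 233 CPM in KO-con and 14.8, 15.0 and 17.0 CPM in KO. In Over-con it had 770, 569 and 667 CPM, and in Over 336, 299 and 316 CPM. Libraries did not overlap within either line, and the lowest Over library lay above every KO-con library. The fitted log2 effect was -3.91 ± 0.11 (SE, n = 3 per group) in KO and -1.08 ± 0.09 in Over.

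Xlr3a, an X-linked gene of a lymphocyte-regulated family (chrX:70331632-70342434, - strand), fell from 67.0, 61.3 and 70.4 CPM in KO-con to 10.2, 9.38 and 8.91 CPM in KO. It fell from 107, 127 and 121 CPM in Over-con to 63.3, 62.8 and 81.8 CPM in Over. The Over libraries thus overlapped the KO-con libraries, and KO was far below all others. Xlr3a has close relatives in its family, so its counts are uncertain where reads could be shared.

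Slc17a9, the vesicular nucleotide transporter, had 28.0, 21.8 and 27.7 CPM in KO-con, 2.19, 2.69 and 2.00 CPM in KO, 52.6, 45.7 and 60.2 CPM in Over-con and 31.1, 27.5 and 32.2 CPM in Over. Its log2 effect was -3.47 ± 0.17 in KO and -0.82 ± 0.12 in Over. Pde3b, a cyclic nucleotide phosphodiesterase, had 103, 107 and 117 CPM in KO-con, 47.2, 45.6 and 46.0 CPM in KO, 288, 308 and 248 CPM in Over-con and 207, 207 and 218 CPM in Over. For both genes every Over library was above every KO library, and for Pde3b also above every KO-con library.

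S100a10, the binding partner of annexin A2, was among the few leading members whose fitted effect was larger in Over. It had 81.8, 74.0 and 82.5 CPM in KO-con and 67.2, 53.3 and 52.8 CPM in KO, and 182 CPM in each Over-con library and 101, 98.4 and 116 CPM in Over. Pcyox1l, a relative of prenylcysteine oxidase, had log2 effects of -0.28 ± 0.09 in KO and -0.99 ± 0.09 in Over. Bhlhe40, a transcriptional repressor of the bHLH class, had effects of -0.70 ± 0.06 in KO and -0.12 ± 0.06 in Over. Cd69, a lymphocyte activation antigen, had 141 to 150 CPM in KO-con, 82.0 to 93.6 CPM in KO, 139 to 150 CPM in Over-con and 124 to 125 CPM in Over. Both controls started at one level for Cd69, and all 6 altered libraries were below them.

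For Cd48 and Gzmb the KO value rests on few counts. Cd48, a surface receptor of the SLAM family, had 1 count over the 3 KO libraries and 83 over the 3 KO-con libraries, a ratio of control to altered of 86.5 with an exact 95% interval from 15.1 to 3459 for counting error. Gzmb, the protease granzyme B, had 4 counts in KO and 54 in KO-con, a ratio of 14.1 with an interval from 5.19 to 53.5. In Over, Cd48 had 6.49, 6.14 and 5.68 CPM against 9.03, 7.93 and 9.14 CPM in Over-con, and Gzmb 8.62, 8.51 and 6.21 CPM against 8.83, 11.8 and 11.2 CPM. Cd48 is listed as 2 transcripts, and the split of reads between them is uncertain.

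The leading higher member was Rgs12, a regulator that shortens G protein signalling (chr5:35292094-35382293, + strand). It had 336, 329 and 363 CPM in KO-con and 841, 874 and 792 CPM in KO, and 70.2, 67.9 and 63.8 CPM in Over-con and 129, 131 and 127 CPM in Over. Its log2 effect was 1.29 ± 0.06 in KO and 0.94 ± 0.07 in Over, from control levels that differed by 2.35 on the log2 scale. Rgs12 is also listed as 2 transcripts. Rgs7bp, which anchors R7-family regulators of the same class, rose by 1.26 ± 0.21 in KO and by 1.48 ± 0.30 in Over, from 3.64 to 5.49 CPM in KO-con and 0.924 to 1.59 CPM in Over-con.

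Syne2, a nuclear envelope spectrin-repeat protein that links the nucleus to actin, started at nearly one level in both controls. It had 333, 319 and 293 CPM in KO-con and 286, 286 and 274 CPM in Over-con, compared with 451, 406 and 422 CPM in KO and 374, 363 and 369 CPM in Over. All 6 altered libraries were above all 6 control libraries. Ndst2, a sulphotransferase that mast cells need to make heparin, showed the same order, with 273, 243 and 276 CPM in KO-con, 376, 429 and 389 CPM in KO, 255, 253 and 322 CPM in Over-con and 363, 361 and 384 CPM in Over.

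The other leading higher members were more changed in KO. The aldo-keto reductase Akr1b7 rose by 0.84 ± 0.09 in KO and 0.22 ± 0.09 in Over, the small GTPase Arl11 by 1.33 ± 0.15 and 0.40 ± 0.16, and the phosphatase Ppm1e by 0.77 ± 0.10 and 0.31 ± 0.10. Mfsd4a, a membrane protein of the major facilitator family listed as 2 transcripts, rose by 0.90 ± 0.14 in KO and 0.58 ± 0.14 in Over, but its mean effect was 0.14 in place of 0.74 when the counts of both transcripts were summed, which no longer passed (adjusted p = 0.306, edgeR).

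Among the members with the largest fitted effect, several were near the floor. Selenbp1, a selenium-binding protein, had 74 counts in KO and 4 in KO-con, a ratio of 17.7 with an exact 95% interval from 6.65 to 66.8. In Over it had 20 counts against 3 in Over-con, a ratio of 5.26 with an interval from 1.56 to 27.7. Themis2, a signalling protein of B cells and macrophages, had 0.311 to 0.538 CPM in KO-con, 1.13 to 1.64 CPM in KO, 0.308 to 0.705 CPM in Over-con and 0.997 to 1.67 CPM in Over. The noncoding transcripts C330026H20Rik and 2900041M22Rik reached at most 1.55 CPM and 1.48 CPM in any library.

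**Figure D2:**
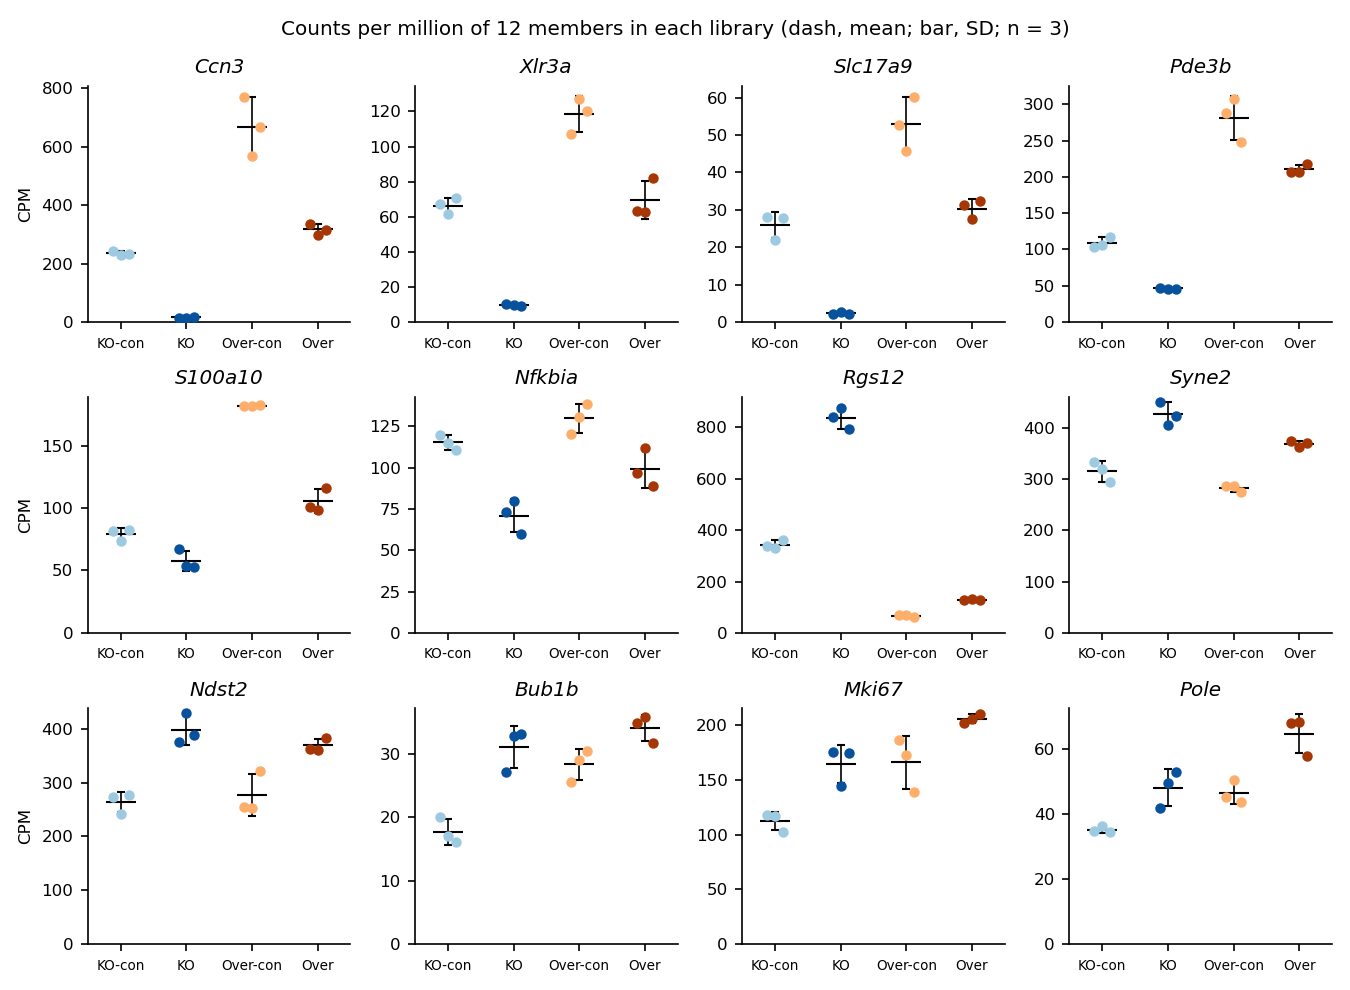
CPM (y axis, from 0) of 12 named members in each of the 12 libraries; points are libraries, dashes are group means and bars are SD (n = 3). The altered line lies below its control in the first 6 panels and above it in the last 6. The control levels differ between the lines at an adjusted p of 0.05 (edgeR) in every panel except Nfkbia, Syne2 and Ndst2.

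Among 25 tested transcripts of DNA replication genes, 12 were called higher for the mean effect and 0 lower, and 6 of them were members: Pole, Rfc5, Mcm2, Mcm3, Mcm4 and Chaf1a. Of 19 mitosis transcripts 8 had a higher mean effect and 0 a lower one, and 6 were members: Bub1b, Mki67, Aurkb, Top2a, Kif23 and Kif11. The median mean effect was 0.29 on the log2 scale for replication and 0.32 for mitosis, beside -0.0067 over all transcripts tested, of which 3.01% were called higher. The effect was positive in both lines for 21 of 25 replication transcripts and 18 of 19 mitosis transcripts, compared with 2221 of all 9903. Taken by line at an adjusted p of 0.05, KO had 10 replication and 8 mitosis transcripts higher and Over had 3 and 0, with 0 lower in both lines. At an unadjusted p of 0.05 no transcript of either list was lower, and DESeq2 and limma-voom also called 0 lower. Leaving out 1 library left 11 to 13 replication and 6 to 11 mitosis transcripts higher, but the members fell to 3 in the replication list without Over replicate 1 and to 3 in the mitosis list without Over-con replicate 1.

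Pole, the catalytic subunit of DNA polymerase epsilon, had 34.7, 36.4 and 34.6 CPM in KO-con and 41.9, 49.7 and 52.9 CPM in KO, and 45.3, 50.6 and 43.8 CPM in Over-con and 68.1, 68.6 and 57.8 CPM in Over. Rfc5, a subunit of the clamp loader, rose by 0.63 ± 0.10 in KO and 0.26 ± 0.10 in Over on the log2 scale. Mcm2, a subunit of the replicative helicase, had 119, 118 and 110 CPM in KO-con and 125, 154 and 153 CPM in KO, and 133, 136 and 143 CPM in Over-con and 163, 173 and 158 CPM in Over. KO and Over-con libraries overlapped for Pole and Mcm2, and Over was the highest group for both.

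Bub1b, a kinase-like protein of the spindle checkpoint, had 20.0, 17.0 and 16.1 CPM in KO-con and 27.2, 32.8 and 33.2 CPM in KO, and 25.6, 29.1 and 30.4 CPM in Over-con and 34.8, 35.8 and 31.8 CPM in Over. Mki67, the proliferation antigen Ki-67, had 118, 117 and 103 CPM in KO-con and 175, 144 and 174 CPM in KO, and 187, 173 and 139 CPM in Over-con and 202, 206 and 210 CPM in Over. Aurkb, the kinase of the chromosomal passenger complex, rose by 0.88 ± 0.16 in KO and 0.40 ± 0.14 in Over. The KO libraries again lay within the range of Over-con or overlapped it, so the levels ran from KO-con, the lowest, to Over, the highest.

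The summed level of the replication list was 745, 766 and 737 CPM in KO-con, 894, 951 and 998 CPM in KO, 902, 930 and 942 CPM in Over-con and 1094, 1079 and 1070 CPM in Over. The mitosis list showed the same order, with 543, 512 and 498 CPM in KO-con, 707, 637 and 716 CPM in KO, 664, 677 and 582 CPM in Over-con and 758, 785 and 773 CPM in Over. Between the controls, which no member had to differ in, 9 of 25 replication transcripts were lower and 1 higher in KO-con than in Over-con at an adjusted p of 0.05 (edgeR). Of the 19 mitosis transcripts 6 were lower and 0 higher. These compare with 8.56% lower and 7.52% higher among all transcripts tested.

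The lists on DNA methylation and chromatin architecture were short. Of 10 DNA methylation machinery transcripts tested 1 was higher for the mean effect (10.0%) and 0 lower. Of 12 chromatin architecture transcripts 2 were higher (16.7%) and 1 lower (8.33%). Over all transcripts tested 3.01% were higher and 3.29% lower. Hells, a chromatin remodeller needed for DNA methylation, was the single member of the first list, at 0.33 ± 0.11 in KO and 0.26 ± 0.11 in Over. It had 42.6, 49.7 and 33.1 CPM in Over-con and 49.5, 48.9 and 50.2 CPM in Over, which overlap. Ncapd2, a condensin subunit, was the single member of the second, with 35.5 to 40.0 CPM in KO-con, 43.8 to 48.9 CPM in KO, at most 39.5 CPM in Over-con and 48.0 to 56.8 CPM in Over. Of 14 imprinted transcripts tested, 0 were called for the mean effect by edgeR, DESeq2 or limma-voom, and 0 had an unadjusted p under 0.05. Over all tested 6.3% were called by edgeR, so 0 of 14 is near that share. Xlr3a, described above, was the single member of the 8 tested germline genes silenced by DNA methylation. In that list 1 was called lower for the mean effect (12.5%) and 1 higher (12.5%). Of the 8, 2 had a positive and 2 a negative effect in both lines.

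Promoter windows are shown for the replication and mitosis members because these genes move together in dividing cells and are known to carry shared promoter elements. In such promoters NF-Y binds the CCAAT box and the MuvB complexes bind the cell cycle genes homology region (CHR). RefSeq windows of GRCm38.p6, taken as the 250 bases before the first listed start, were matched by symbol for 7375 of 9481 tested genes, for 77 of 102 higher and for 74 of 106 lower member genes. Capitals mark the CCAAT box (CCAAT) and the CHR (TTTGAA) on either strand. The 4 windows shown are the only ones with a CHR among the 9 replication and mitosis members with a window:
Top2a, chr11:99024190-99024439, - strand: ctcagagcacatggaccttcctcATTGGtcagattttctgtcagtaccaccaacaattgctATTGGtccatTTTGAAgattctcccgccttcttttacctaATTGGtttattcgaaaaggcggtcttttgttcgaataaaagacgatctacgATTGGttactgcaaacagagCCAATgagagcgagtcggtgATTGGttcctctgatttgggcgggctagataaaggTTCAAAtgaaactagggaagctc
Mki67, chr7:135716380-135716629, - strand: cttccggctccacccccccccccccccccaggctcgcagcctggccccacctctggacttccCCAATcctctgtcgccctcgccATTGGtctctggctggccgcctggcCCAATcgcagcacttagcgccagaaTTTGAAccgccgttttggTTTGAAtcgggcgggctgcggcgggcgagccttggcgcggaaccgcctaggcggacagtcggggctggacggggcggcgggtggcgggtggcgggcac
Kif11, chr19:37376132-37376381, + strand: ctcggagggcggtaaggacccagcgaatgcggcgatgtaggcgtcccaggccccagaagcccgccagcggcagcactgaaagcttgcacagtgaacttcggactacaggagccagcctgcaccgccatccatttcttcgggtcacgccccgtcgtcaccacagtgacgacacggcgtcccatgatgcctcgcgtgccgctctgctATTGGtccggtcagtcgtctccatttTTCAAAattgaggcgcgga
Mcm2, chr6:88898781-88899030, - strand: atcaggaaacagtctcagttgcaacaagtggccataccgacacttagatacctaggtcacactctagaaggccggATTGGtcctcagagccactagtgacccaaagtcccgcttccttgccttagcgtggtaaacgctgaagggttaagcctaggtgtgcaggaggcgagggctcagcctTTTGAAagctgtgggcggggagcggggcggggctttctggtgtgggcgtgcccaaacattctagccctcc
Of the 9 replication and mitosis members with a window, 8 held a CCAAT box and 4 a CHR. Over all tested genes with a window 36.2% held a CCAAT box and 10.5% a CHR. Among all 77 higher members with a window, 44.2% held a CCAAT box and 19.5% a CHR. No E2F sequence, searched as TTTGGCGC or TTTCCCGC, was found in the 9 windows, and 0.8% and 1.82% of all windows held one. The motifs were read on both strands, the CHR and E2F letters were added after the members had been seen, and a match is not a binding site.

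Of 22 immediate early transcripts tested, 10 had a lower mean effect and 0 a higher one, and of 11 NF-kappa B transcripts 4 were lower and 0 higher, beside 3.29% lower among all tested. At an unadjusted p of 0.05 edgeR had 2 immediate early transcripts higher, and DESeq2 and limma-voom called 0 higher in either list. Leaving out any 1 KO-con library, or KO replicate 2, left 6 immediate early transcripts lower. The members were Atf3, Zfp36 and Egr1 in the first list and Nfkbia, Birc3 and Tnfaip2 in the second. The median effect of the immediate early list was -0.32 in KO and -0.10 in Over, and that of the NF-kappa B list -0.34 and -0.10. By line at an adjusted p of 0.05, KO had 12 immediate early transcripts lower and 2 higher and Over had 1 lower and 0 higher, and the NF-kappa B list had 7 lower in KO and 0 called in Over.

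Nfkbia, the inhibitor IkB-alpha that NF-kappa B itself induces, had 120, 115 and 111 CPM in KO-con and 73.2, 79.9 and 60.0 CPM in KO, and 121, 131 and 138 CPM in Over-con and 97.0, 112 and 88.7 CPM in Over. Over-con lay just above KO-con, and each altered line was below its own control. Birc3, an inhibitor of apoptosis protein, was at 114 to 119 CPM in KO-con, 82.3 to 95.9 CPM in KO, 120 to 139 CPM in Over-con and 117 to 119 CPM in Over, so the drop in Over was slight. Tnfaip2, a TNF-induced protein, fell by 0.31 in KO and 0.23 in Over on the log2 scale, each with an SE of 0.08.

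Atf3, a stress-induced transcription factor, had 68.5, 67.5 and 72.6 CPM in KO-con and 51.8, 47.3 and 57.0 CPM in KO, and 98.6, 81.6 and 82.2 CPM in Over-con and 69.0, 68.1 and 63.7 CPM in Over. Zfp36, which destabilises AU-rich transcripts, fell by 0.61 in KO and 0.24 in Over, with an SE of 0.11 for both. Egr1, a serum-induced zinc finger factor, had 80.9, 70.6 and 88.0 CPM in KO-con and 49.6, 77.7 and 46.1 CPM in KO, with KO replicate 2 inside the control range. In Over-con it had 128, 165 and 141 CPM and in Over 91.1, 123 and 96.7 CPM.

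Chemokines and interferon-stimulated genes held 5 further members, all lower, beside 1.08% lower members over all transcripts tested. Ccl2, which attracts monocytes, had 110, 104 and 130 CPM in KO-con and 77.8, 121 and 78.6 CPM in KO, which overlap, and 168, 180 and 178 CPM in Over-con and 98.1, 105 and 89.7 CPM in Over, which do not. Cxcl1, which attracts neutrophils, had 48.9, 40.9 and 56.7 CPM in KO-con, 33.2, 43.4 and 20.1 CPM in KO, 67.6, 77.6 and 57.7 CPM in Over-con and 36.1, 41.6 and 41.8 CPM in Over. A lower mean effect was called for 3 of 13 chemokine and cytokine transcripts and 5 of 22 interferon-stimulated transcripts, beside 3.29% of all tested. In both lists 0 were called higher by edgeR, DESeq2 and limma-voom. At an unadjusted p of 0.05 (edgeR), 1 was higher in each list. Without Over-con replicate 1 the interferon calls were 3, and without KO-con replicate 3 no interferon transcript remained a member.

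Ifit3, an antiviral effector, fell by 0.39 in KO and 0.48 in Over, with an SE of 0.15 for both. Gbp2, a guanylate-binding GTPase, fell by 0.26 in KO (SE 0.12) and 0.41 in Over (SE 0.11). Ifi204, an interferon-induced nuclear protein, fell by 0.26 in KO and 0.22 in Over, with an SE of 0.09 for both. The Over and Over-con libraries of Ifi204 overlapped. The other calls of the interferon list were not shared: Cxcl10 had a log2 effect of -1.88 in KO and 0.07 in Over, and Rsad2 -2.03 and 0.07.

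Promoter windows of Ifit3 and Gbp2 are shown because they held an AP-1 sequence (TGANTCA, capitals). They were the only 2 of 8 windows with one among lower members of the NF-kappa B, immediate early, chemokine and interferon lists. Whether AP-1 acts on them was not tested, and both windows follow:
Ifit3, chr19:34583279-34583528, + strand: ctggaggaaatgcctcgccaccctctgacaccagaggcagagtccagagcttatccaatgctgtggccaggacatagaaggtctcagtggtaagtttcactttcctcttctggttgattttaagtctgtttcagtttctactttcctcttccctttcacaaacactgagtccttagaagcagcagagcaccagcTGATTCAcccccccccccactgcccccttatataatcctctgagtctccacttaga
Gbp2, chr3:142620413-142620662, + strand: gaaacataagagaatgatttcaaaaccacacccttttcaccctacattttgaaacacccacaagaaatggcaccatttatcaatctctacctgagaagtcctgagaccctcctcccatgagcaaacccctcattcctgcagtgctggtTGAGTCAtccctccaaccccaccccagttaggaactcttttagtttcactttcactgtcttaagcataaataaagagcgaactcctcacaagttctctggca
An AP-1 sequence was in 8 of the 74 windows of lower members (10.8%), in 1.3% of those of higher members and in 4.62% of all windows. A TATA box (TATAAA) was in 10.8% of the windows of lower members and 6.44% of all. An NF-kappa B sequence (GGGACTTTC) was in 2 windows of lower members (2.70%), Neurl3 and Ifngr2, named here after the search, and in 0.325% of all. It was in 0 of the 8 windows of lower members of the NF-kappa B, immediate early, chemokine and interferon lists. A CpG observed to expected ratio over 0.6 was found in 52.7% of lower, 58.4% of higher and 66.6% of all windows.

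Of 15 STAT5 target and cytokine feedback transcripts 7 were called lower for the mean effect, beside 3.29% of all tested, and 0 higher, also at an unadjusted p of 0.05. A single one was a member, the cyclin Ccnd2, and 7 of 15 had a negative effect in both lines. The summed level of the list was 3086, 2985 and 3011 CPM in KO-con and 1929, 1935 and 1976 CPM in KO, and 2343, 2285 and 2470 CPM in Over-con and 2152, 2178 and 2116 CPM in Over. The sum was lower in each altered line without overlap, with the larger gap in KO. In Over most of that gap came from Ccnd2 alone, at a mean of 1140 CPM in Over-con and 959 CPM in Over. The median effect of the list was -0.82 in KO and -0.01 in Over. The cytokine Osm had a log2 effect of -1.48 in KO and -0.08 in Over, and the kinase Pim2 -1.96 and 0.49. Ccnd2, which drives the G1 phase, had 1068 to 1083 CPM in KO-con, 827 to 877 CPM in KO, 1123 to 1151 CPM in Over-con and 951 to 965 CPM in Over, with all 6 altered libraries below all 6 controls.

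**Figure D3:**
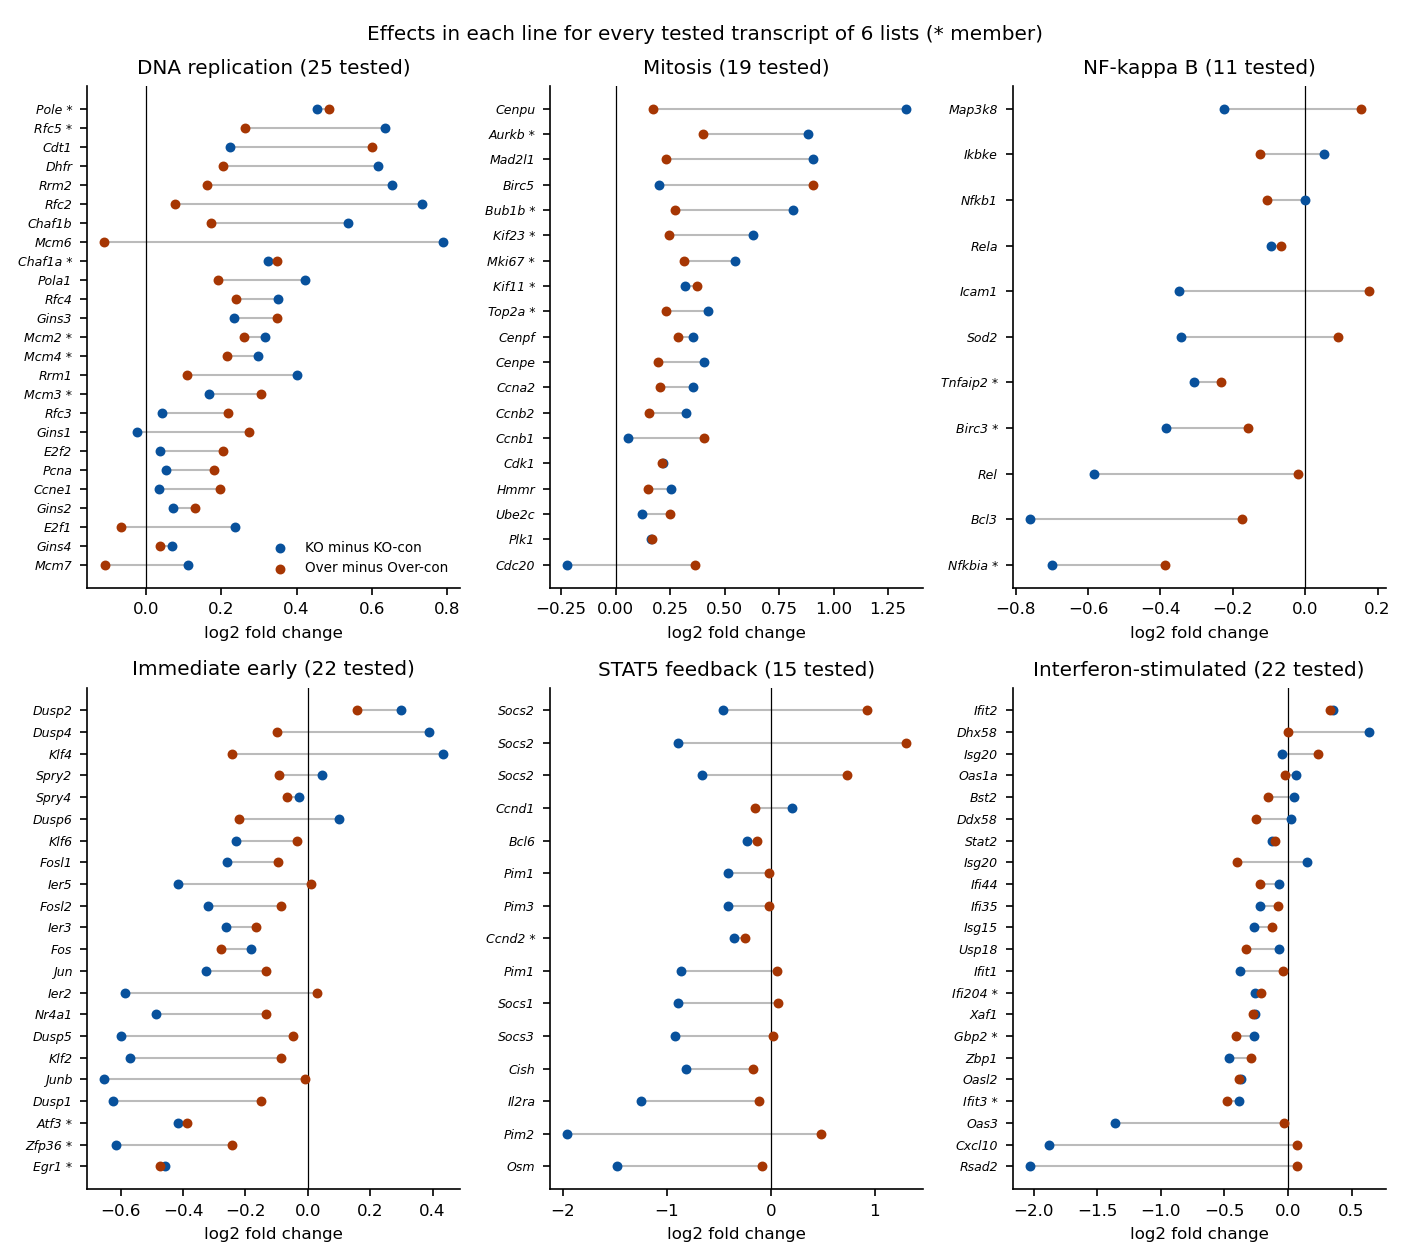
Log2 fold change (x axis) of KO against KO-con and of Over against Over-con for every tested transcript of 6 gene lists, ordered by the mean effect; lines join the 2 effects of a transcript and asterisks mark members. Replication and mitosis transcripts lie mostly right of 0 in both lines, whereas the STAT5 list has a median of -0.82 in KO and -0.01 in Over.

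Members of further lists are given beside the 2.11% of all transcripts tested that were members. Ccn3 and Tagln2, an actin-binding protein of the calponin family, were the 2 members of 22 tested actin, SRF and YAP target transcripts. Tagln2 had 195 to 215 CPM in KO-con, 156 to 171 CPM in KO, 283 to 293 CPM in Over-con and 230 to 235 CPM in Over. Cyp11a1, the first enzyme of steroid synthesis, listed as 2 transcripts, fell by 0.37 in KO and 0.31 in Over, with an SE of 0.10 for both, and was the member of the ovarian somatic list, of which 8 transcripts were tested. Ifitm3, an interferon-induced membrane protein that is also a marker of early germ cells, fell by 0.33 and 0.31, with an SE of 0.11 for both. The KO and KO-con libraries of Ifitm3 overlapped. None of the tested transcripts of the ribosomal protein (31), ribosome biogenesis (28), oxidative phosphorylation (25), amino acid response (23), glycolysis (22), p53 (22), NRF2 (17), lysosome (16), endoplasmic reticulum chaperone (16) and cholesterol (15) lists were members. With 2.11% members over all tested, lists of this size would hold few, so each of these zeros is near that share. In all, 35 members (16.7%) were on a list and 174 were on none, compared with 465 of all transcripts tested (4.70%), and the lists themselves were drawn up with earlier results of these data known.

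Markers of other cell types moved with the lines in part, and their share in the results was not tested. Of 13 mast cell transcripts 5 had a higher mean effect and 1 a lower one, beside 3.01% higher and 3.29% lower over all tested, and Ndst2, Hdc and Gzmb were members, beside 2.11%, with Hdc, the histamine-forming enzyme, at 1.29 ± 0.35 in KO and 0.82 ± 0.37 in Over. The summed mast cell level ran from 811 to 913 CPM in KO-con and 1772 to 1843 CPM in KO, and from 1331 to 1424 CPM in Over-con and 1287 to 1325 CPM in Over, so it was above its control in KO and below it in Over. The protease Cpa3 had a log2 effect of 1.55 in KO and -0.31 in Over and was not a member. Cd68, a lysosomal marker of macrophages listed as 2 transcripts, was the member among 5 tested macrophage transcripts, at 0.47 ± 0.11 in KO and 0.50 ± 0.11 in Over. In that list 2 were called higher for the mean effect, Cd68 and Fcgr1, and at an unadjusted p of 0.05 there were 2 higher and 2 lower. The median effect of the 5 was 0.37 in KO and -0.21 in Over, with 1 positive and 2 negative in both lines.

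Summed fibroblast and feeder markers ran from 1917 to 2128 CPM in KO-con, 1791 to 2381 CPM in KO, 2624 to 2871 CPM in Over-con and 2283 to 2388 CPM in Over, and none of 19 tested transcripts was a member. The sum was lower in Over than in Over-con and overlapped between KO and KO-con. For the mean effect 3 transcripts were called lower (15.8%) and 1 higher (5.26%), beside 3.29% and 3.01% of all tested. Leaving out 1 library left 1 to 5 lower. The effect was negative in both lines for 9 of the 19 and positive in both for 0, compared with 2459 and 2221 of all 9903. In bulk libraries fewer cells of a type and less RNA per cell cannot be told apart. Of the lymphocyte markers, none reached the test.

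Summed neutrophil and promyelocyte markers ran from 106 to 125 CPM in KO-con and 242 to 276 CPM in KO, and from 153 to 168 CPM in Over-con and 153 to 173 CPM in Over. Of 3 tested, the protease Ctsg was called higher for the mean effect, with 1.17 in KO and -0.01 in Over, and 0 were members. Erythroid and megakaryocyte markers summed to 247 to 285 CPM in KO-con, 325 to 361 CPM in KO, 272 to 340 CPM in Over-con and 329 to 345 CPM in Over. Of 2 tested, the integrin Itga2b was called higher, with 0.48 in KO and 0.16 in Over, and 0 were members. Over all transcripts tested 3.01% were called higher and 2.11% were members, and lists this short allow no reading of a single call. Both sums separated KO from KO-con and overlapped between Over and Over-con.

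**Figure D4:**
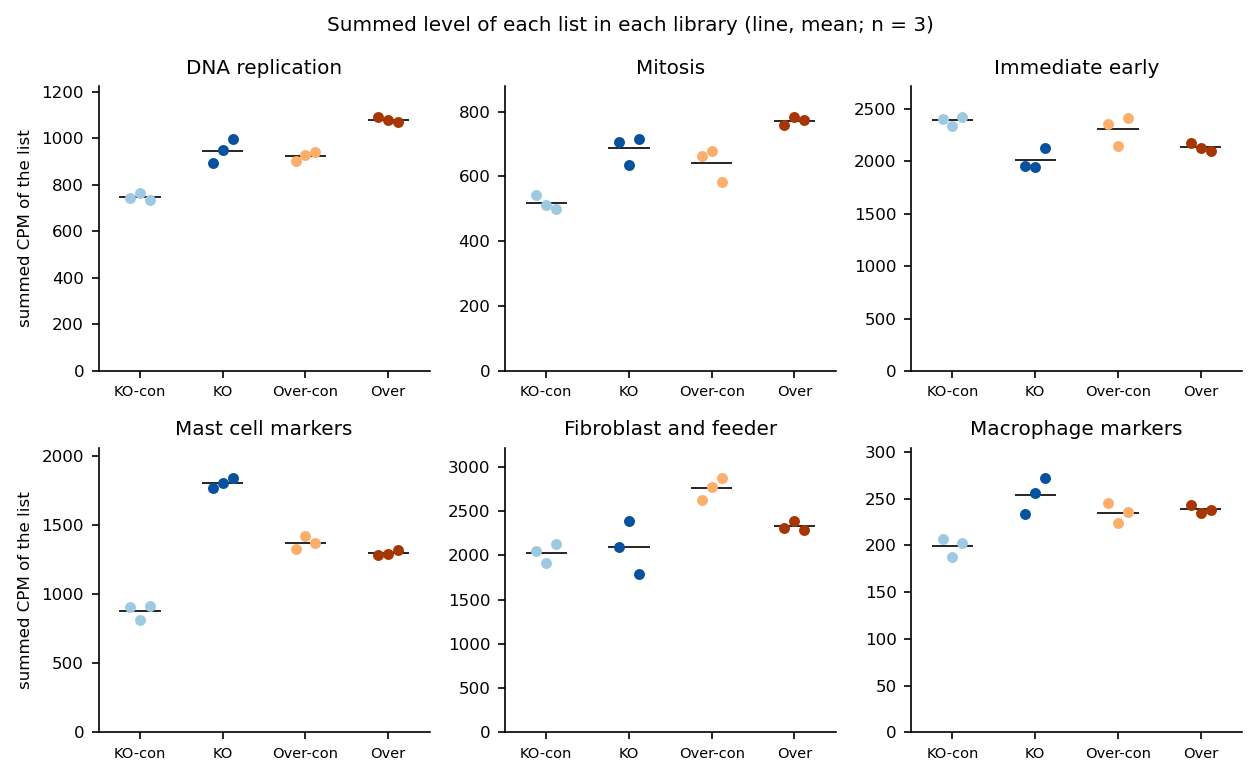
Summed CPM (y axis, from 0) of 6 gene lists in each library; points are libraries and lines are group means (n = 3). Replication and mitosis lists are higher in each altered line than in its control, with KO near the level of Over-con, and the mast cell list is above its control in KO and not in Over.

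The size of the response differed between the lines for a minority of members. The difference between the KO and the Over effect is orthogonal to their mean, although the requirement on each line bears on it. It passed an adjusted p of 0.05 for 23 of 209 members, beside 8.64% of all transcripts tested. In 21 of the 23 the effect was larger in KO, beside 705 of the 856 passing transcripts among all tested (7.12% of all 9903). In 2 of the 23, Pcyox1l and Tbc1d2, a Rab GTPase-activating protein, the effect was larger in Over. Without Over replicate 1 or Over replicate 2 the difference passed for 15 members. By size alone 147 members had the larger effect in KO and 62 in Over. Over all transcripts tested, 1322 passed an adjusted p of 0.05 (edgeR) in KO and 127 in Over. Larger effects in KO were therefore not particular to the members. The median size of the effect was 0.41 in KO and 0.31 in Over.

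The controls themselves differed in 93 of 209 members at an adjusted p of 0.05, beside 16.1% of all transcripts tested. KO-con was below Over-con in 70 of them and above it in 23. Among lower members the split was 47 below and 8 above, and among higher members 23 below and 15 above. The mean effect is the same whichever control is assigned to which line, but the effects of the single lines are not. With the controls exchanged, so that KO was set against Over-con and Over against KO-con, 141 of 209 members kept one direction in both lines. Of these, 53, with 32 higher and 21 lower, also passed an unadjusted p of 0.05 in both. Over all 9903 transcripts tested, 150 met the definition of a member with the controls exchanged. The exchange reuses the 12 libraries and the mean effect that chose the members, so these counts and the values below are a description.

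Ccn3 turned in that exchange, with a log2 effect of -5.42 for KO against Over-con and 0.43 for Over against KO-con. Rgs12 also turned, at 3.64 and -1.41. Mki67, at -0.01 and 0.87, and Pole, at 0.06 and 0.88, had values near 0 for KO against Over-con. By contrast Cd69 (-0.72 and -0.21), Nfkbia (-0.87 and -0.22), Ccnd2 (-0.43 and -0.17), Syne2 (0.60 and 0.23) and Ndst2 (0.52 and 0.48) kept their direction and passed an unadjusted p of 0.05 in both.

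Members were spread over 20 chromosomes. Chromosome 11 held 25 of 846 tested transcripts (2.96%) and chromosome 1 held 18 of 583 (3.09%), whereas chromosome 8 held 3 of 522 (0.575%) and chromosome X 4 of 306 (1.31%). Of the 209, 191 came from genes listed with 1 transcript, and 10 were noncoding. The median abundance of the members was 5.69 on the log2 CPM scale, compared with 4.33 for all transcripts tested.

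At the edge of the definition, Surf4, a cargo receptor of the endoplasmic reticulum, was the member closest to the limit set for a single line, with -0.18 ± 0.06 in KO and -0.13 ± 0.06 in Over, and C1s2 was just outside, with -0.38 ± 0.10 and -0.21 ± 0.10. For the mean effect, Amigo3 was just inside at -0.33 ± 0.10 and Arl6ip5 just outside at -0.21 ± 0.06. As a contrast, the aldo-keto reductase Akr1c13 moved in opposite directions, with 1331 to 1487 CPM in KO-con, 916 to 1043 CPM in KO, 422 to 440 CPM in Over-con and 686 to 696 CPM in Over. Akr1c12 and the adaptor Card9 also fell in KO, by 1.45 and 0.73 on the log2 scale, and rose in Over, by 0.76 and 0.82.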

How the data were processed

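Transcripts were counted in 12 libraries of 4 groups of 3. Per the labels, total RNA was extracted with Trizol and libraries were made with the KAPA Stranded mRNA-Seq kit. The submitters' processing notes name mm9, HISAT2 and DESeq2, and the study states trimming and mapping with default parameters. The table the authors deposited holds whole-number read counts per RefSeq transcript, not normalised. The settings of the counting program, strand included, are not given in the sources used here. Of 41388 transcripts listed, 20526 had no count in any library, and genes with 1 transcript held 96.37% of counts. Where genes have several transcripts, overlap or have close copies, the split of reads is uncertain. At most 3 counts in every library were found for 51.6% of genes with several transcripts and 45.1% of the others, and reads shared by transcripts of a gene appear to be left out of some counts.

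Counts were filtered with filterByExpr, scaled by TMM and fitted with edgeR 4.0.16 (R 4.3.3) by the quasi-likelihood test with 1 term per group over all 12 libraries, and p-values were adjusted by Benjamini-Hochberg over 9903 transcripts. CPM are relative to TMM-scaled totals. The mean effect is the average of KO minus KO-con and Over minus Over-con on the log2 scale. The p-values of the contrasts that chose the members are not given for single members. Floors are 3 counts in a library, and intervals cover counting error only. The study used DESeq2 with a log2 fold threshold of 1; both were alternatives here, as were limma-voom, other scalings and filters, exchanged controls and leaving out each library.

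Libraries of a group differed by more than sampling noise, the chi-square statistic divided by its degrees of freedom being 1.93 to 12.3 over pairs. Positions are from GENCODE vM1 on NCBIM37 (mm9), and 7 members had none. Promoter windows are from RefSeq on GRCm38.p6. Genes named were Dppa3, the 8 higher and 8 lower members with the lowest adjusted p and separated libraries, the 5 of each with the largest effect, up to 3 members per list, those at each threshold and 3 that moved oppositely. Canx, Cox4i1, Ctcf, Hspa5, Lamp1, Gapdh, Stra8, Sohlh1, Fcer1a, Cpa3, Osm, Pim2, Cxcl10, Rsad2, Tbc1d2, Neurl3, Ifngr2, Fcgr1, Ctsg, Itga2b, Mcm3, Mcm4, Chaf1a, Top2a, Kif23 and Kif11 fall outside this rule and were named after their values were seen. The members, gene lists and tests were chosen with earlier results of these data known. In simulated counts for 9903 transcripts, 95 of 100 with a shared log2 change of 0.5 became members, as did 100 of 100 with a change of 1. So did 5 of 200 changed in KO alone and 10 of 9303 unchanged ones. Of the 200 changed in KO alone, 151 were called for the mean effect. The simulation held no change in Over alone and placed changes only in more abundant transcripts, so its rates may differ from those in the data.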

Additional observations from a re-analysis of the deposited data

Results flagged for a closer look

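The difference between the effect in KO and the effect in Over passed an adjusted p of 0.05 (edgeR) for 14 named members, given here as KO effect minus Over effect on the log2 scale. The drop was larger in KO for Ccn3 (-2.83), Slc17a9 (-2.66), Xlr3a (-2.03), Pde3b (-0.82), Bhlhe40 (-0.58) and Cd69 (-0.51), and for Cd48 (-5.50) and Gzmb (-3.31), whose values rest on 1 and 4 counts in KO. The rise was larger in KO for Arl11 (0.92), Akr1b7 (0.62), Bub1b (0.54), Ppm1e (0.45) and Rgs12 (0.35). The drop was larger in Over for Pcyox1l (0.71). The direction was shared in both lines by the definition of the members.

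For the 3 named transcripts that moved oppositely the same difference was -2.21 for Akr1c12, -1.23 for Akr1c13 and -1.56 for Card9, as their selection fixed. Groups of 3 libraries are too small to single out a library that stands apart.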

How the results depend on the processing

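Limits: 3 libraries a group, 1 derivation a line, and controls that differ from each other limit every shared move given here. Of 1146 mean effects of named genes under the alternatives, 1070 kept their side of the adjusted p threshold, 65 lost it, 11 gained it and 0 reversed. These counts cover the mean effect, not the requirement on each line. Hells, Ifitm3, Ifi204, Surf4, Amigo3 and the low-count C330026H20Rik and 2900041M22Rik were among those that lost it.

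The 624 calls and 209 members became 653 and 175 with DESeq2, 623 and 208 with limma-voom, 613 and 200 with DESeq2's size factors, 628 and 197 with upper-quartile factors, 741 and 245 without a filter, 607 and 186 with at least 10 counts in every library, and 622 and 207 per gene. With library totals alone 425 were higher and 241 lower (63.81% higher, against 47.76%), and the median of all effects was 0.029. All 209 members kept their direction in each of these where they were tested (194 with at least 10 counts). Fewer stayed members: 166 of the 209 with DESeq2, 166 with library totals alone and 202 per gene. Requiring an adjusted p in each line left 30 members, requiring only the same sign gave 515, and a mean effect over 1 left 18 members and 42 calls. Both lines passed an adjusted p in the same direction for 30 transcripts and in opposite directions for 36. Exchanged controls gave 150 members, fitting each line alone 206, and requiring separated libraries in each line in place of a p 222. The cause of these shifts was not tested, except that stricter rules keep fewer.

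Leaving out 1 library gave 453 to 653 calls, 142 to 224 members, 168 to 240 transcripts moving the same way and 199 to 426 moving oppositely, the 426 without Over-con replicate 3. The members were partly other transcripts: of the 209, 133 remained members without Over replicate 2, the fewest, and 177 without KO replicate 3, the most. Without Over-con replicate 3, 153 of the 209 were among the 224. The difference between lines then passed for 15 to 22 members, 15 without Over replicate 1 or 2, and the controls differed in 71 to 97. Replication kept 11 to 13 higher and 0 lower calls and mitosis 6 to 11 higher and 0 lower; immediate early genes had 6 to 11 lower. Replicate numbers did not pair the samples (correlations of deviations from -0.152 to 0.0568), and a replicate block gave 559 calls and 192 members.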
